A study of Mus musculus with 12 samples.

Results

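Culture-activated hepatic stellate cells were compared by RNA sequencing with cells freshly taken from the liver, where they store vitamin A beside the sinusoid. The comparison takes 6 of the 12 libraries of the study, 3 activated (ACT) and 3 quiescent (QS), chosen by the group in the sample titles, and all 12081 genes of the deposited table. ACT cells came from livers of Hk2 fl/fl mice, received an adenovirus that expresses eGFP and stayed in culture for 6 days in serum-containing DMEM. QS cells came from livers of the same genotype and were taken directly after density gradient isolation, with neither virus nor culture, so that virus, culture and time cannot be told apart here. In mice of this genotype, sites for Cre recombinase flank part of the hexokinase 2 gene, and neither ACT nor QS received Cre. The KO and LAC groups, of 3 libraries each, entered the estimate of the spread and are given beside single results: KO cells were cultured for the same time after a virus with a Cre and eGFP fusion, and LAC cells are KO cells with 10 mM lactate for 24 h. Whether the 3 libraries of each group are from different animals or cultures is not stated, so that a p-value here covers library-to-library spread alone and that spread may be technical.

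Quiescent stellate cells hold retinyl esters in lipid droplets, wrap the sinusoid like other pericytes and secrete small amounts of matrix. In injured liver, and on culture plastic, they lose the droplets, divide, build a contractile apparatus of smooth muscle type and secrete fibrillar collagen, a change called activation. TGF-beta, PDGF and stiffness of the surroundings are among the signals known to drive it, and liver fibrosis is its consequence in the tissue.

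The estimated number of reads in the listed genes was 11.41 to 14 megareads in ACT and 4.35 to 10.14 megareads in QS. Levels are in CPM, counts scaled to library size and normalized by the authors. Fold changes are ACT over QS on the log2(CPM + 1) scale, where changes of genes with low values come out too small. A gene was called when limma's p, adjusted over all 12081 genes by Benjamini-Hochberg, was under 0.05. By this rule 4592 genes (38.0%) were higher and 4289 (35.5%) lower in ACT, together 73.5% of all genes, and 1965 (16.3%) were at least 2-fold higher and 1800 (14.9%) at least 2-fold lower. The ACT libraries all lay above the QS libraries in 4755 genes (39.4%) and all below in 4464 (37.0%). The median log2 fold change over all genes was 0.03, and the quartiles were -0.54 and 0.62. Counts of listed genes are read against these shares. Large changes were more often falls: 159 called genes fell by at least 5 on the log2 scale and 72 rose by as much.

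Both groups held RNA of other liver cells, and the levels of their markers differed. All 7 defining endothelial markers were called lower in ACT. Of 25 general endothelial genes 24 fell and none rose, the median being -4.37. Kdr, a receptor of vascular endothelial growth factor, was at 26.2, 26.6 and 29.5 CPM in the ACT libraries and 1969, 1975 and 2005 CPM in the QS libraries (log2 fold change -6.13, SE 0.0447, limma adjusted p = 4.28e-19). Cdh5, the cadherin of endothelial junctions, was at 67.6 to 77 CPM in ACT against 2149 to 2267 CPM in QS. The 44 endothelial markers together made up 0.501% to 0.511% of the ACT libraries, 1.54% to 1.63% of the KO libraries, 0.936% to 0.954% of the LAC libraries and 2.90% to 2.95% of the QS libraries. In ACT a single defining marker of the 7, Clec4g, had a mean under 1 CPM, and 5 had means of at least 10 CPM. Hepatocyte transcripts were scarcer in ACT as well: 33 of 35 measured markers fell and 1 rose, the median being -5.00, and Ttr, Cps1 and Hnf4a had means under 1 CPM. The marker that rose was Arg1, the urea cycle arginase that macrophages also express, at 1408, 1385 and 1376 CPM in the ACT libraries and 117, 124 and 114 CPM in the QS libraries.

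Macrophage genes split, with those of resident cells lower and many others higher in ACT. Of 17 Kupffer cell markers, genes of the resident liver macrophage, 16 fell and none rose (median -3.66). Clec4f, a lectin of Kupffer cells, had 3.14, 3.63 and 4.4 CPM in the ACT libraries and 358, 370.4 and 351 CPM in the QS libraries. Timd4, a receptor for dying cells, had 1.27, 1.56 and 0.729 CPM in the ACT libraries and 109.6, 119.5 and 113 CPM in the QS libraries. Marco, a scavenger receptor, fell less far, to 194 CPM in ACT against 931 CPM in QS (-2.26). Among the 22 general macrophage genes 15 rose and 3 fell (median 1.02). Of 7 inflammatory macrophage genes 1 rose and 4 fell (median -1.66), and of 6 genes of alternative activation 3 rose and 3 fell (median 1.09). Of 18 genes of lipid-associated macrophages, the foamy cells found in fatty and scarred tissue, 17 rose and 1 fell (median 2.74). Gpnmb, a membrane glycoprotein of such cells, reached 5096, 5309 and 5192 CPM in the ACT libraries and 99.8, 91.7 and 86.5 CPM in the QS libraries (log2 fold change 5.8, SE 0.0554, limma adjusted p = 6.57e-18). Itgax, the integrin chain known as CD11c, was at 254 to 259.6 CPM in ACT against 2.04 to 4.18 CPM in QS. Atp6v0d2, a subunit of the proton pump of macrophages and osteoclasts, was at 331 to 349 CPM in ACT against 0 to 0.622 CPM in QS. The pan-macrophage marker Adgre1, the F4/80 antigen, was not called at 364 ± 4.65 CPM in ACT and 322 ± 14.9 CPM in QS (limma adjusted p = 0.117), though with the ACT and QS libraries fitted alone it was called higher (adjusted p = 0.00282). The 53 macrophage markers held 6.39% to 6.5% of the ACT libraries, 0.784% to 0.810% of the KO libraries, 2.18% to 2.20% of the LAC libraries and 1.72% to 1.76% of the QS libraries. In such bulk samples, fewer cells of a type and less RNA per cell cannot be told apart.

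**Figure D1:**
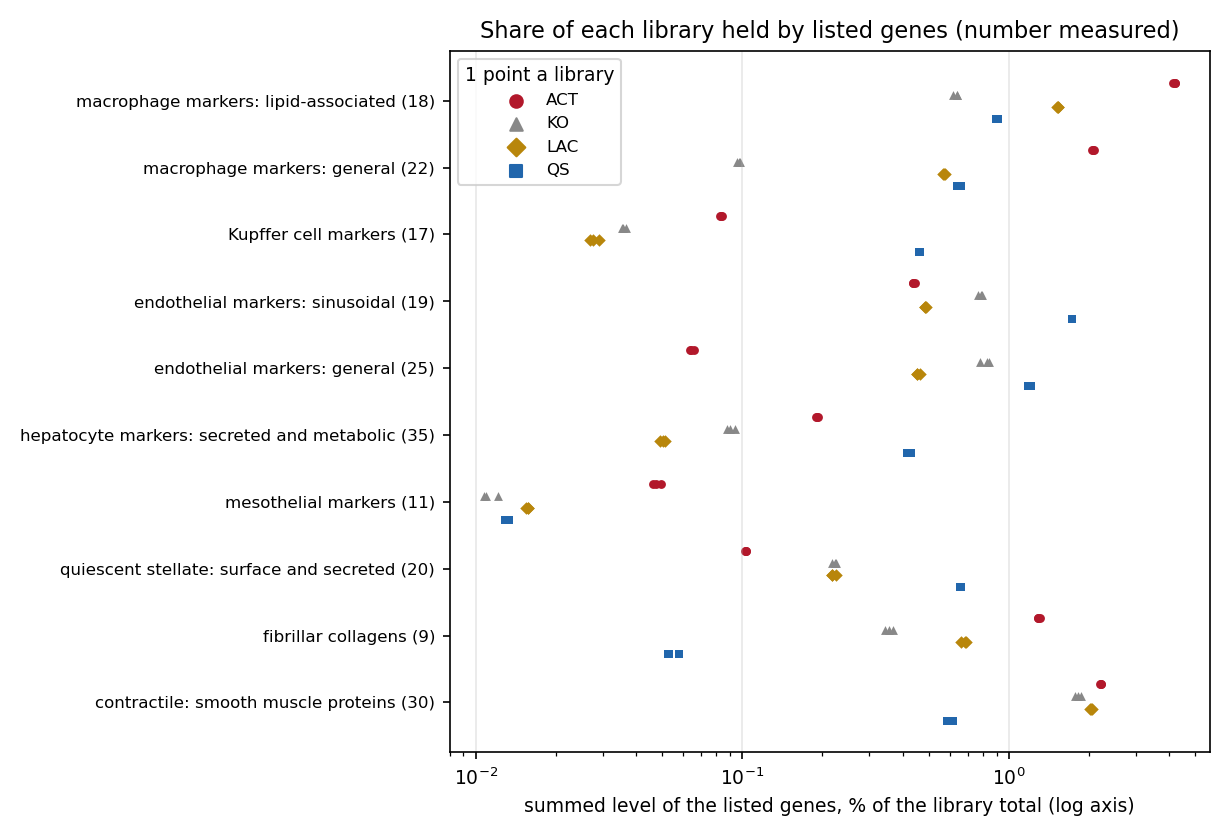
Summed level of listed marker genes as a percentage of each library's total (log axis), 1 point a library, for ACT, KO, LAC and QS. ACT libraries lie to the right of QS libraries for macrophage, mesothelial, fibrillar collagen and contractile genes, and to the left for Kupffer cell, endothelial, hepatocyte and quiescent stellate genes. The hepatocyte list includes Arg1, which macrophages also express and which holds most of the summed level of that list in ACT.

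Markers of other mesenchyme were also higher in ACT. Of 11 mesothelial genes 8 rose and 3 fell (median 2.05). Wt1, a transcription factor of the liver surface epithelium, averaged 0.896 ± 0.261 CPM in KO and 5.89 ± 0.691 CPM in LAC, and was at 77.6, 82.8 and 79 CPM in the ACT libraries and 1.39, 1.2 and 0.209 CPM in the QS libraries. Upk3b, a surface protein of the same cells, averaged 0.872 ± 0.395 CPM in KO and 4.61 ± 0.623 CPM in LAC, and was at 59.7, 59.7 and 55.7 CPM in the ACT libraries and 4.44, 6.24 and 6.27 CPM in the QS libraries. Both were thus high in ACT alone among the 3 cultured groups. Msln, a further mesothelial marker, fell (-1.04) and was low throughout, at 1.49 to 2.19 CPM in ACT against 4.08 to 6.09 CPM in QS. The mesothelial list made up 0.0462% to 0.0494% of ACT libraries, 0.0108% to 0.0121% of KO libraries and 0.0129% to 0.0134% of QS libraries. Of 9 portal fibroblast genes 7 rose and 1 fell, led by Fbln2, a matrix fibulin, at 943, 961 and 969 CPM in the ACT libraries and 1.83, 3.56 and 3.09 CPM in the QS libraries (log2 fold change 8.0, SE 0.119, limma adjusted p = 4.35e-16). Thy1, the marker most used for portal fibroblasts, averaged 64.1 CPM (ACT), 3.41 CPM (KO) and 2.95 CPM (QS), and at least 10 CPM in LAC. The 9 portal fibroblast genes averaged 0.147% of ACT, 0.0564% of KO, 0.101% of LAC and 0.0194% of QS libraries. The part of these cells in the matrix changes below was not tested. Of the 3 defining lymphocyte markers none was among the listed genes.

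Of the 12 genes with the largest rises 7 encode matrix, its crosslinking enzyme or contractile proteins, and the 12 largest falls were mostly in genes of sinusoidal endothelium, stellate cells and hepatocytes. The steepest rise was in Acta2 (9.56), smooth muscle actin, at 2624, 2711 and 2633 CPM in the ACT libraries and 3.82, 2.64 and 1.46 CPM in the QS libraries. It was followed by Ltbp2, a matrix protein that binds microfibrils, at 451, 462 and 488 CPM in the ACT libraries and 0.245, 0.347 and 0 CPM in the QS libraries (log2 fold change 8.62, SE 0.0882, limma adjusted p = 1.10e-17). Cdh11, a cadherin of mesenchymal cells, had 177, 162 and 162 CPM in the ACT libraries and 0.112, 0 and 0.627 CPM in the QS libraries. The steepest falls were in Clec4g, a lectin of sinusoidal endothelium, at 0.354, 0.953 and 0.729 CPM in the ACT libraries and 729, 723 and 712 CPM in the QS libraries, and in Colec10. Colec10, a collectin of stellate cells, was at 0.283, 0.173 and 0.0729 CPM in the ACT libraries and 491, 503 and 514 CPM in the QS libraries. Gpr182, an endothelial chemokine-binding receptor, was at 1.09 to 1.7 CPM in ACT against 525 to 567 CPM in QS. For these genes, as for every called gene named here, the ACT and QS libraries did not overlap. Prl2c2, a prolactin family gene known as proliferin, had 139, 133 and 135 CPM in ACT and was listed at 0 in each QS library; it has near-identical copies, so that its single value is uncertain. The Mup and Serpina1 genes of hepatocytes, also among the largest falls, share this limit. In absolute CPM the largest rises were in Fn1, fibronectin (11337 CPM in ACT and 245 CPM in QS), the lysosomal protease gene Ctsd and the lysozyme gene Lyz2. The largest falls in CPM were in mitochondrially encoded genes and in Selenop, which carries selenium in plasma, at 379 to 417 CPM in ACT against 6733 to 6884 CPM in QS.

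A set of 80 genes was below 1 CPM in every QS library and at 10 CPM or more in every ACT library, and 162 genes met the reverse. Col11a1, a fibrillar collagen chain, had 42.6, 42.2 and 44 CPM in ACT and was listed at 0 in each QS library. Actg2, a smooth muscle actin of the gut and bladder, and Bdnf, a neurotrophin, were listed at 0 in QS too. Actg2 had 73.8, 70.1 and 76.3 CPM and Bdnf 42.1, 37.7 and 39.7 CPM in ACT. Among the genes that met the reverse were Vipr1, a receptor of vasoactive intestinal peptide in stellate cells, at 0.219 to 0.607 CPM in ACT against 309 to 331 CPM in QS. Col13a1, a transmembrane collagen, was at 0 to 0.0867 CPM in ACT against 94.3 to 117 CPM in QS. Car3, a carbonic anhydrase of liver and fat, was at 0 to 0.0729 CPM in ACT against 159 to 165 CPM in QS. The same pattern was met by Ccl5, Cxcl9, Tnfsf10 and Gbp5 of the interferon and chemokine genes described below.

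Collagen chains changed by type rather than together. Of 9 fibrillar chains 8 rose and 1 fell, with a median of 2.58, and their share of a library was 1.28% to 1.31% in ACT and 0.0527% to 0.0581% in QS. Col1a1, the major chain of type I collagen, reached 5356, 5284 and 5383 CPM in the ACT libraries and 29, 29.3 and 27.6 CPM in the QS libraries (log2 fold change 7.49, SE 0.0409, limma adjusted p = 9.45e-20). Its partner Col1a2 was at 3284 to 3316 CPM in ACT against 109.5 to 124 CPM in QS (4.83). Col5a2 and Col5a1, chains of the type V collagen that starts type I fibrils, rose by 5.75 and 2.56 on the log2 scale. Col27a1, a cartilage fibrillar chain, was the one that fell (-1.31), at 6.03 to 7.98 CPM in ACT against 18.2 to 19.998 CPM in QS. Of 5 fibril-associated chains 3 rose and 1 fell. Col12a1, which sits on the surface of type I fibrils, was at 579.5, 589 and 583 CPM in the ACT libraries and 1.76, 0.72 and 0.418 CPM in the QS libraries. Col14a1, a close relative, fell to 37.2, 33.9 and 38.7 CPM in ACT against 796, 794 and 796 CPM in QS (log2 fold change -4.41, SE 0.0505, limma adjusted p = 3.21e-17). Col7a1, the anchoring fibril chain of skin, rose (3.81). In the basement membrane collagen IV, Col4a1 (1.01) and Col4a2 (0.62) rose by less than Col4a5 and Col4a6, the chains of specialised basement membranes. Col4a5 was at 300.5, 297 and 299 CPM in the ACT libraries and 1.28, 1.68 and 1.67 CPM in the QS libraries (log2 fold change 6.88, SE 0.0801, limma adjusted p = 3.63e-17). Col4a6 averaged 28.2 CPM (ACT), 0.547 CPM (KO) and 0.0783 CPM (QS). Col8a1, a short-chain collagen of vessel walls, rose as well, at 162 to 178 CPM in ACT against 1.52 to 3.31 CPM in QS.

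Enzymes that finish collagen rose with it. Of 17 hydroxylase and chaperone genes 14 rose and 2 fell (median 1.10), and of 7 genes that trim propeptides 6 rose and none fell (median 1.05). Plod2, which hydroxylates the lysines used in crosslinks, was at 244 ± 6.74 CPM in ACT and 13.2 ± 1.35 CPM in QS (4.11), and its partner Fkbp10 was at 185 ± 2.88 CPM in ACT and 6.98 ± 2.3 CPM in QS (4.58). Serpinh1, the collagen chaperone HSP47, was at 1106 ± 14.7 CPM in ACT and 114 ± 9.32 CPM in QS (3.27). The larger of the 2 falls was in Colgalt2, a galactosyltransferase for collagen, at 0.193 ± 0.17 CPM in ACT and 12.1 ± 2.07 CPM in QS (-3.45). Bmp1, which cleaves the C-propeptide of procollagen, was at 135 to 154 CPM in ACT against 5.96 to 10.2 CPM in QS. Its relative Tll1 was at 83.8, 80.5 and 87.9 CPM in the ACT libraries and 0.311, 0 and 0 CPM in the QS libraries. Among 6 crosslinking genes, Lox was at 537, 511 and 503 CPM in the ACT libraries and 0.62, 0.72 and 1.25 CPM in the QS libraries (log2 fold change 8.13, SE 0.0989, limma adjusted p = 5.60e-17). Loxl2 (3.2), Loxl1 (3.17) and Loxl4 (1.06) rose, Tgm2, a transglutaminase, fell (-0.4) and Loxl3 was not called at 34.5 ± 0.563 CPM in ACT and 30.9 ± 4.5 CPM in QS, but was called higher without the third QS library (adjusted p = 0.0293).

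**Figure D2:**
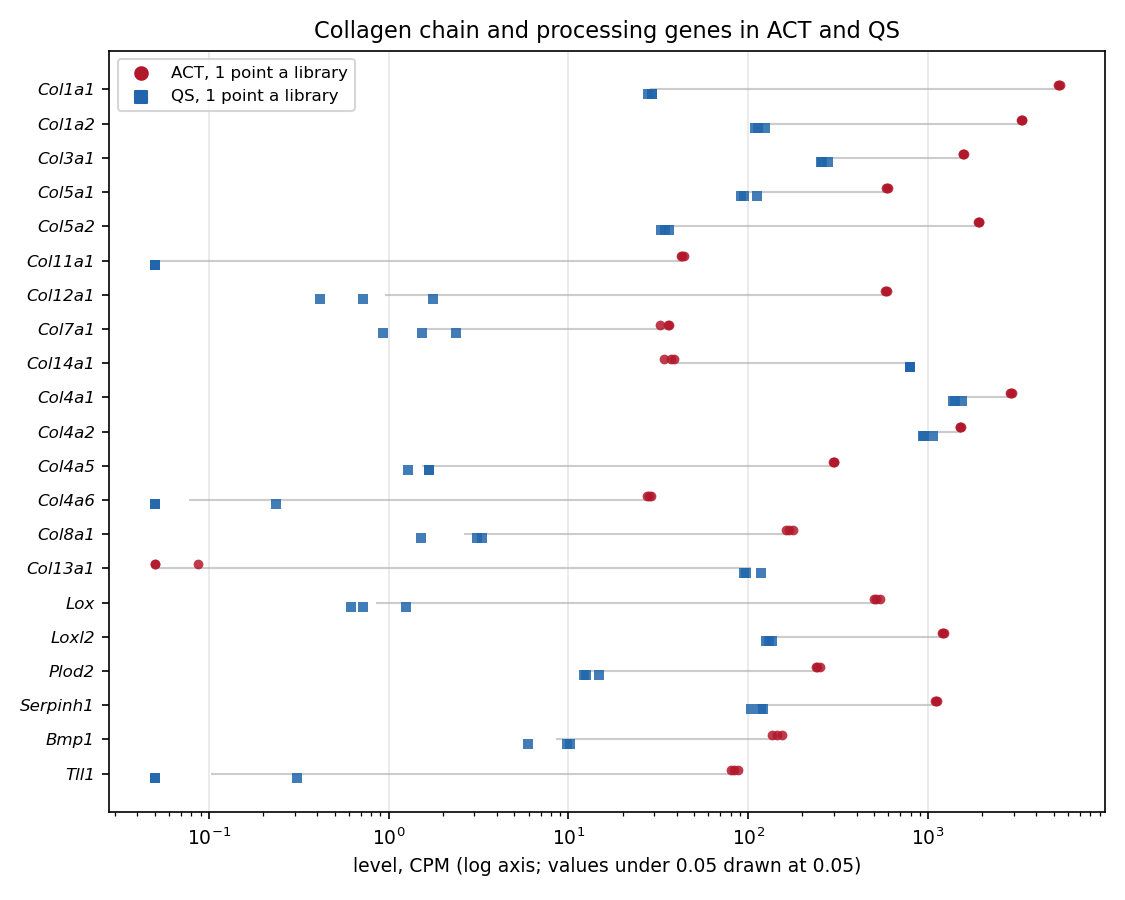
Level of collagen chain and collagen processing genes in CPM (log axis; values under 0.05 drawn at 0.05), 1 point a library, ACT as circles and QS as squares, with a line between the group means. The ACT libraries lie right of the QS libraries for every gene shown except Col14a1 and Col13a1, where they lie left.

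Other matrix groups were mixed. Of 20 matricellular proteins, which signal rather than build, 12 rose and 7 fell (median 1.30). Vcan, the large proteoglycan versican, was at 193 to 208 CPM in ACT against 0.438 to 3 CPM in QS (6.26). Tnc, tenascin C, was at 1471 to 1487 CPM in ACT against 21.1 to 25.3 CPM in QS, and Thbs1, thrombospondin, at 4677 to 4721 CPM in ACT against 92.5 to 107 CPM in QS. Spp1, osteopontin, belongs to the macrophage list too and averaged 5084 CPM (ACT), 123 CPM (KO) and 97.8 CPM (QS). Of the 7 small leucine-rich proteoglycans, which bind collagen fibrils, 4 fell and 3 rose. Dcn, decorin, was at 382, 369 and 346 CPM in the ACT libraries and 2039, 1971 and 1920.2 CPM in the QS libraries (log2 fold change -2.43, SE 0.0505, limma adjusted p = 1.38e-14). Prelp (-3.14), Ecm2 (-3.06) and Lum (-2.69) fell too, while Ogn (3.09), Fmod (1.37) and Bgn (0.38) rose. Within elastic fibres 11 of 14 genes rose and 3 fell (median 2.39). Fbn1, fibrillin of the microfibril, was at 549 to 565 CPM in ACT against 51.4 to 61.7 CPM in QS. The latent TGF-beta binding proteins diverged: Ltbp2, Ltbp3 (3.14) and Ltbp1 (2.06) rose, and Ltbp4 fell to 13.2, 13.2 and 15.2 CPM in ACT against 537, 423 and 467 CPM in QS (log2 fold change -5.0, SE 0.156, limma adjusted p = 1.22e-12).

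Basement membrane partners and their integrin receptors changed in both directions. Of 13 laminins and partners 6 rose and 7 fell (median -0.15). Lama1, an embryonic laminin chain that quiescent stellate cells are known to make, fell (-3.26) at 9.89 to 10.6 CPM in ACT against 99.6 to 111 CPM in QS. Nid1, the nidogen that links laminin with collagen IV, rose (1.94) at 1802 to 1828 CPM in ACT against 459 to 479 CPM in QS. Of 12 integrin alpha chains 9 rose and 3 fell (median 1.61). Itga8, a nephronectin receptor and stellate marker, was at 5.45, 4.49 and 5.79 CPM in the ACT libraries and 127, 139 and 124 CPM in the QS libraries (log2 fold change -4.39, SE 0.0951, limma adjusted p = 2.15e-14), and Itga1 (-2.56) and Itga9 (-2.24) fell as well. The fibronectin receptor chain Itga5 was at 489 to 534 CPM in ACT against 157 to 168 CPM in QS (1.64), and Itgav, the chain used in activation of latent TGF-beta, rose by 1.81. Of the beta chains, Itgb5 (2.61) and Itgb1 (0.92) rose and Itgb3 fell (-1.98). Leukocyte chains rose in 4 of 4 cases, among them Itgam, which averaged 1037 CPM (ACT), 4.48 CPM (KO) and 155 CPM (QS).

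Proteases and their inhibitors mostly rose. Of 25 metalloprotease genes 20 rose and 4 fell (median 1.63). Mmp10, stromelysin 2, was at 134, 132 and 133 CPM in the ACT libraries and 0.207, 0.48 and 0 CPM in the QS libraries (log2 fold change 6.79, SE 0.103, limma adjusted p = 5.13e-16). Mmp12, the macrophage elastase, averaged 2522 CPM (ACT), 27.1 CPM (KO) and 61.8 CPM (QS). Adam8, a sheddase of myeloid cells, had the same order of groups, with 701 CPM (ACT), 9.39 CPM (KO) and 26.5 CPM (QS). Of 9 inhibitors and plasminogen system genes 8 rose and 1 fell (median 2.90). Timp1, an inhibitor of metalloproteases, was at 242, 234 and 234 CPM in the ACT libraries and 1.34, 1.44 and 0.627 CPM in the QS libraries (log2 fold change 6.82, SE 0.116, limma adjusted p = 1.57e-15), and Timp2 rose (2.9). Reck, a membrane-bound metalloprotease inhibitor, was the gene that fell, at 9.12 to 11 CPM in ACT against 35.5 to 38 CPM in QS.

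Contractile genes rose as a group. Of 30 smooth muscle and actin-binding genes 26 rose and 1 fell (median 1.69), and their share was 2.20% to 2.21% of ACT libraries and 0.588% to 0.618% of QS libraries. Tagln, the actin-bundling protein SM22, was at 1294, 1281 and 1282 CPM in the ACT libraries and 12.9, 9.86 and 12.9 CPM in the QS libraries (log2 fold change 6.65, SE 0.071, limma adjusted p = 1.63e-17). Cnn1, calponin, was at 171, 183 and 179 CPM in the ACT libraries and 0.397, 0.00503 and 0.418 CPM in the QS libraries. Myh11, the smooth muscle myosin heavy chain, was at 164, 173 and 159.9 CPM in the ACT libraries and 11.2, 5.83e-07 and 9.98 CPM in the QS libraries, where the second QS library, close to 0, stands apart from the first and the third. Lmod1, the leiomodin of smooth muscle, rose as well (5.79). At adhesion sites, which couple actin to matrix, 9 of 12 genes rose and 2 fell (median 1.49): Palld (2.67), Tes (2.19) and Zyx (1.93) rose most, Pxn, paxillin, and Vasp fell (-0.92 and -0.24), and Fermt2 was not called, but was called lower without the first QS library (adjusted p = 0.0279) and under 2 other settings. Of 20 targets of YAP, a factor that answers to stretch, 12 rose and 5 fell (median 1.14). Ankrd1 was at 425 to 438 CPM in ACT against 9.3 to 10.1 CPM in QS. Ccn2, connective tissue growth factor, was at 1125 to 1145 CPM in ACT against 244 to 278 CPM in QS. In the pathway itself Tead3 (2.62) and Tead1 (1.52) rose, Wwtr1, which encodes TAZ, fell (-1.44) and Yap1 changed little (0.25).

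Serum response factor binds the CArG box, and Mrtfa, its actin-regulated cofactor, rose to 66.6, 71.4 and 66.5 CPM in ACT against 26.7, 19 and 20.2 CPM in QS (1.61), whereas Srf itself rose by 0.41. Of the 6 actin-regulated factors measured 3 rose, 2 fell and 1 was not called (median 0.21). Their part in the contractile changes was not tested. Promoters of RefSeq (build GRCm38.p6, 250 bases before to 50 after the start of a gene) were searched for an exact CArG box on both strands. Of 26 contractile genes with a promoter entry 3 (11.5%) held one, against 148 of 9634 genes tested (1.54%) and 1.79% of all genes called higher. The 3 are shown, each with 30 bases on either side, on the strand of the gene and with the box in capitals. All 3 rose, as did 26 of the 30 genes of the list: Myl9 by 4.87, Cnn2 by 1.86 and Myl6 by 1.16. They encode a myosin regulatory light chain, a calponin and a myosin essential light chain.
Myl9, chr2:156775273-156775342, plus strand: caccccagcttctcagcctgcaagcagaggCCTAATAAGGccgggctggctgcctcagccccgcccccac
Cnn2, chr10:79988514-79988583, plus strand: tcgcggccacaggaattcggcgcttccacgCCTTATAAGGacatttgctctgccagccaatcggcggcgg
Myl6, chr10:128493020-128493089, minus strand: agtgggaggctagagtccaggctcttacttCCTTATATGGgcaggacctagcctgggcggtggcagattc
No exact match lay in the Acta2 or Cnn1 windows, which says only that these letters are not there.

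Transcription factors of stellate identity mostly fell and those of mesenchymal activation were split. Of 15 identity factors 11 fell and 4 rose (median -1.51). Tcf21, a factor of stellate cell origin, was at 3.12, 3.3 and 3.79 CPM in the ACT libraries and 32.1, 31 and 32.1 CPM in the QS libraries (log2 fold change -2.9, SE 0.108, limma adjusted p = 8.67e-12). Lhx2, which restrains activation in mice, was at 3.7 to 6.07 CPM in ACT against 23.5 to 30.7 CPM in QS. Nr1h4, the bile acid receptor FXR, was at 4.39 to 5.1 CPM in ACT against 64.5 to 74.2 CPM in QS (-3.6). Members of the GATA family went opposite ways. Gata4 fell to 33.5, 38.3 and 35.4 CPM in ACT against 236, 238 and 227 CPM in QS (-2.68). Gata6 rose to 69.7, 70.1 and 70.6 CPM in ACT against 9.57, 8.16 and 9.19 CPM in QS (2.84). Gata4 is also on the list of sinusoidal endothelial markers. Pparg, whose loss is often linked with activation, was at 9.67 ± 0.94 CPM in ACT and 5.71 ± 1.7 CPM in QS, and its call was a rise (log2 fold change 0.7, SE 0.239, limma adjusted p = 0.0175). That call was lost without the second QS library (adjusted p = 0.0819) or the first ACT library (adjusted p = 0.0583). Of 22 activation factors 12 rose and 8 fell, with a median of 0.51 that became -0.027 when genes under 5 CPM were left out. Prrx1, a homeobox factor of limb and scar fibroblasts, was at 90.5, 88.5 and 82.8 CPM in the ACT libraries and 0.623, 1.68 and 1.04 CPM in the QS libraries (log2 fold change 5.41, SE 0.142, limma adjusted p = 1.80e-13). Runx2 and Runx1, factors of bone and blood, rose by 2.15 and 2.11. Hmga2, a chromatin protein of embryonic mesenchyme, was at 106 to 115 CPM in ACT against 24.4 to 28.6 CPM in QS. Snai1, a repressor of epithelial cadherin, rose (1.21), whereas Zeb1 fell (-2.17) and Twist1 was not called, at 11.4 ± 0.891 CPM in ACT and 13.1 ± 3.41 CPM in QS (limma adjusted p = 0.424), but was called lower without the third QS library (adjusted p = 0.0245). Ets1 averaged 92.1 CPM (ACT), 467 CPM (KO) and 797 CPM (QS), and Tcf4 averaged 96.4 CPM (ACT), 350.2 CPM (KO) and 473 CPM (QS). Endothelial markers had the same order of these groups, and their part in it was not tested.

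**Figure D3:**
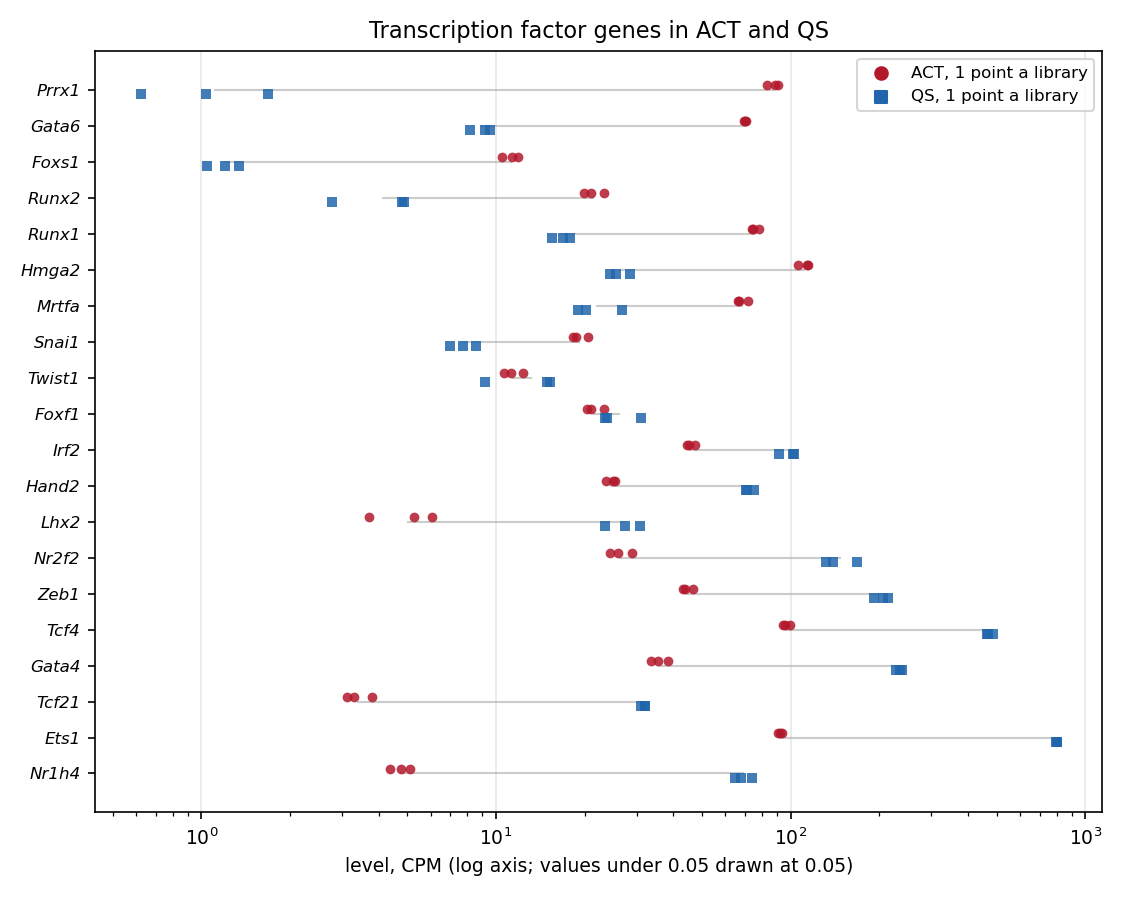
Level of transcription factor genes in CPM (log axis), 1 point a library, ACT as circles and QS as squares, with a line between the group means. The upper 8 genes, Prrx1 to Snai1, are higher in ACT, the lower 10, Irf2 to Nr1h4, are lower in ACT, the libraries of Twist1 overlap and those of Foxf1 lie close together.

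The quiescent program fell and its retinoid branch did so only in part. Of 20 surface and secreted genes of quiescent stellate cells 19 fell and 1 rose (median -4.35), and their share was 0.102% to 0.103% of ACT and 0.655% to 0.663% of QS libraries. Reln, reelin, was at 106, 107 and 107 CPM in the ACT libraries and 1363, 1384 and 1377 CPM in the QS libraries. Abcc9, a subunit of the potassium channel of pericytes, was at 8.04 to 9.97 CPM in ACT against 591 to 639 CPM in QS. The gene that rose was Plat, tissue plasminogen activator, at 32.7 to 36.2 CPM in ACT against 1.71 to 2.91 CPM in QS. Within the cell, Rgs5, a pericyte regulator of G proteins, fell to 8.46 CPM in ACT against 569.6 CPM in QS and the globin Cygb fell (-4.74), but the intermediate filament genes Des (3.82), Vim (1.96) and Nes (1.64) rose. Des, desmin, the classical marker of rodent stellate cells, was at 342, 350.1 and 344 CPM in the ACT libraries and 27.3, 20.2 and 23.8 CPM in the QS libraries. Pdgfrb, the PDGF receptor of pericytes, differed little, with 95.7 ± 1.77 CPM in ACT and 75.7 ± 0.671 CPM in QS (0.33).

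Of 10 genes of retinoid storage and transport 5 fell and 3 rose. Lrat, which forms retinyl esters, was at 3.75, 3.03 and 2.48 CPM in the ACT libraries and 340.3, 363 and 352 CPM in the QS libraries (log2 fold change -6.44, SE 0.13, limma adjusted p = 1.00e-14). Of the remaining storage and transport genes, the ester hydrolase Ces1d (-4.34), Mgll (-3.0) and Rbp4 (-4.66) fell. Hepatocytes express Ces1d and Rbp4 as well. Ces1d averaged 0.0545 CPM (ACT), 2.68 CPM (KO) and 20.7 CPM (QS) and Rbp4 averaged 0.595 CPM (ACT), 6.67 CPM (KO) and 39.1 CPM (QS), and hepatocyte markers, whose part in these falls was not tested, fell in the same libraries. Among the 3 that rose were Plin2 and, at a low level, Crabp1, a retinoic acid-binding protein, at 0.99, 1.13 and 1.09 CPM in ACT and listed at 0 in QS. Of 11 genes of retinoid oxidation and reduction 7 rose and 2 fell (median 1.10). Aldh1a2, which makes retinoic acid, averaged 1.91 ± 0.245 CPM in KO and 11 ± 0.455 CPM in LAC, and was at 37.1, 34.9 and 34.4 CPM in the ACT libraries and 0.207, 0 and 0.209 CPM in the QS libraries (log2 fold change 5.01, SE 0.145, limma adjusted p = 5.30e-13). Bco1, which splits beta-carotene, rose (2.88), and Cyp26b1, which degrades retinoic acid, fell to 74.1 CPM in ACT against 337 CPM in QS. Of 5 retinoid receptors 4 fell, such as Rarg (-1.66) and Rxra (-1.31), and Rarb rose (0.77).

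Neural and adhesion genes that stellate cells share with neurons changed both ways. Mapt, the tau gene, was at 0.26 to 0.415 CPM in ACT against 37.7 to 46.4 CPM in QS, and Ngfr, the low-affinity neurotrophin receptor, at 1.31 to 1.64 CPM in ACT against 38.2 to 40.04 CPM in QS. Ncam1, the neural adhesion molecule, was at 154, 154 and 158 CPM in the ACT libraries and 1.2, 0.974 and 1.2 CPM in the QS libraries (log2 fold change 6.2, SE 0.0979, limma adjusted p = 7.58e-16). Alcam (3.29) and Tubb3 (3.28) rose. Of 10 cadherins 5 rose and 5 fell, with Cdh11 and Cdh3 (5.5) at one end and Cdh5 and Cdh13 (-3.92) at the other. Cdh3, the placental cadherin, averaged 90.1 CPM (ACT), 3.23 CPM (KO) and 1.07 CPM (QS).

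Of 26 receptors and enzymes of vasoactive signals 12 fell and 10 rose, and of 10 genes of cyclic GMP signalling 7 fell and 2 rose. Ednra, an endothelin receptor, was at 2.15 to 2.92 CPM in ACT against 64.5 to 77.5 CPM in QS, and Ednrb, the other one, at 24.6 to 29.1 CPM in ACT against 1234 to 1266 CPM in QS. Ednrb (-5.47) is also expressed by endothelium, whose markers fell in the same libraries. Npr1, the receptor of atrial natriuretic peptide, was at 5.69 to 6.9 CPM in ACT against 297 to 314 CPM in QS. Ptgir, the prostacyclin receptor, rose (3.3). Of 10 prostaglandin enzymes 7 rose and 2 fell (median 1.12). Ptgs2, inducible cyclooxygenase, was at 278, 262 and 264 CPM in the ACT libraries and 3.62, 5.76 and 5.43 CPM in the QS libraries. Ptgis, prostacyclin synthase, was at 123 to 138 CPM in ACT against 9.09 to 10.02 CPM in QS, and Hpgd, which inactivates prostaglandins and is on the Kupffer cell list, at 4.81 to 6.44 CPM in ACT against 211 to 226 CPM in QS.

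In the TGF-beta family ligands, receptors and antagonists behaved differently. Of 16 ligands 7 rose and 8 fell. Tgfb3 was at 129, 126 and 128 CPM in the ACT libraries and 3.31, 4.32 and 2.51 CPM in the QS libraries (log2 fold change 4.9, SE 0.112, limma adjusted p = 3.72e-14). Tgfb2 rose by 4.02 and Inhba, the activin A chain, by 4.11. Bmp2 (-4.77), Gdf2, which encodes BMP9 (-5.91), and Gdf10 (-5.2) fell. Bmp2 is on the endothelial list, and Gdf2 was at 2.6 to 3.18 CPM in ACT against 227 to 241 CPM in QS. Of 12 receptors 9 fell and 3 rose (median -0.83): Tgfbr3, betaglycan, fell to 46.6 CPM in ACT against 313 CPM in QS, and Tgfbr1, the signalling type I receptor, rose (0.75). Of 8 extracellular antagonists and binding proteins 6 rose and 2 fell (median 3.26). Fstl1, follistatin-like 1, was at 974, 987 and 1009 CPM in the ACT libraries and 53.5, 57.7 and 56.1 CPM in the QS libraries. Fst (3.57), Fstl3 (3.97), Grem1 (3.66) and Nbl1 (2.95) rose. Of 17 intracellular members 10 fell and 3 rose. Id4, a helix-loop-helix target of BMP signals, fell (-3.63), and Smad9 rose (2.41).

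For PDGF, both receptor genes rose, Pdgfra to 238, 232 and 236 CPM in ACT against 80.1, 83.3 and 83.5 CPM in QS (1.5) and Pdgfrb as above. Among the ligands Pdgfb (0.57) and Pdgfc (0.96) rose and Pdgfa (-0.6) and Pdgfd (-0.58) fell. Of the angiogenic ligands Vegfa was at 151 to 153 CPM in ACT against 43.1 to 49 CPM in QS, Vegfd rose (3.64) and Angpt2 fell (-3.45). The receptors Kdr, Tek, Flt4, Tie1 and Flt1, all used by endothelium, fell by 4.05 to 6.16 on the log2 scale beside the endothelial markers. Fgf2, a mitogen of fibroblasts, was at 182, 171 and 176 CPM in the ACT libraries and 7.66, 10.3 and 7.9 CPM in the QS libraries (log2 fold change 4.21, SE 0.0812, limma adjusted p = 6.26e-15). Hgf, the hepatocyte growth factor that quiescent stellate cells secrete, was at 20.3, 22.4 and 21.4 CPM in the ACT libraries and 239.7, 251 and 251 CPM in the QS libraries (log2 fold change -3.47, SE 0.0531, limma adjusted p = 5.43e-16). Of the receptors Egfr (3.34) and the collagen receptor Ddr1 (3.77) rose, and Lifr (-4.76) and Il6st (-2.44), which pass on cytokines of the interleukin 6 family, fell. Igfbp5, an insulin-like growth factor binding protein, was at 0.586 to 1.7 CPM in ACT against 43.6 to 46.9 CPM in QS and Igfbp4 fell (-2.0).

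Wnt, Hedgehog and Notch genes changed in both directions. Of 6 Wnt and R-spondin ligands 4 rose and 2 fell. Wnt5a, a ligand best known for signals without beta-catenin, was at 84.2, 78.7 and 81.7 CPM in the ACT libraries and 1.65, 4.32 and 3.26 CPM in the QS libraries (log2 fold change 4.4, SE 0.172, limma adjusted p = 1.46e-11). Wnt4 rose (2.42), and Wnt2 (-3.78) and Rspo3 (-2.5) fell. Of 5 Wnt targets measured 4 fell and 1 rose (median -1.27), and their summed level was 313 CPM in ACT and 317 CPM in QS. The feedback targets of beta-catenin Axin2 (-1.27), Nkd1 (-1.98) and Nkd2 (-2.83) were lower in ACT. Hedgehog co-receptors Gas1 (3.1) and Boc (3.3) rose, and its targets Hhip (-4.05) and Ptch1 (-2.03) fell. In the Notch pathway 10 of 14 genes fell and 3 rose (median -1.05). Dll4 (-5.39), Notch4 (-3.18) and Notch1 (-2.91), which endothelium also expresses, fell, and Notch2 (0.89) and its ligand Jag1 (0.77) rose. Notch3, the pericyte receptor, was at 3.5 to 4.1 CPM in ACT against 7.52 to 8.16 CPM in QS. Among guidance cues Slit3, a secreted repellent, averaged 0.716 CPM in KO, and was at 93.8, 98.1 and 99.5 CPM in the ACT libraries and 0.723, 0 and 1.04 CPM in the QS libraries. Sema3a, a semaphorin, was at 190.2 to 193 CPM in ACT against 7.2 to 8.98 CPM in QS.

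Interferon-induced genes fell in ACT. Of 34 genes of the induced list 33 fell and none rose (median -4.23), and of 16 guanylate-binding proteins and interferon-inducible GTPases all 16 fell (median -4.30). The 61 interferon genes, ligands and receptors included, held 0.156% to 0.159% of ACT libraries, 0.150% to 0.157% of KO libraries, 0.162% to 0.168% of LAC libraries and 1.46% to 1.5% of QS libraries. Rsad2, the antiviral enzyme viperin, was at 10.7, 12 and 10.1 CPM in the ACT libraries and 1840.2, 1894 and 1950.0 CPM in the QS libraries (log2 fold change -7.31, SE 0.109, limma adjusted p = 4.35e-16). Iigp1, a GTPase against parasites in vacuoles, was at 2.62, 2.08 and 2.48 CPM in the ACT libraries and 649, 679 and 661 CPM in the QS libraries (log2 fold change -7.62, SE 0.116, limma adjusted p = 5.43e-16). Irf1 fell (-2.31). Of the receptor chains Ifnar2 fell (-1.03), Ifngr1 rose (0.65) and Ifnar1 was not called, at 122 ± 8.23 CPM in ACT and 119 ± 7.36 CPM in QS (limma adjusted p = 0.571), but was called higher under quantile normalization (adjusted p = 0.00892).

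The interferon-stimulated response element was searched as GAAA, any 2 bases and GAAA, on both strands of the same promoter windows. It was found in 15 of 25 induced genes with a promoter entry (60%) and in 10 of 11 guanylate-binding proteins and GTPases (90.9%), against 381 of 9634 genes tested (3.95%). Among all genes called lower 5.29% held it, and among those called higher 3.45%. Whether the element had a part in the falls was not tested. These shares count matches anywhere in the window. Examples were taken from matches that lie wholly before the start of the gene, and a single chromosome was left out of them. Among the remaining genes the 3 with the largest falls of each list are shown, so that genes with larger falls may hold the element too. The strand is that of the gene, with up to 30 bases on either side. The element is in capitals and reads TTTC, 2 bases and TTTC where it lies on the other strand.
Rsad2, chr12:26456533-26456602, minus strand: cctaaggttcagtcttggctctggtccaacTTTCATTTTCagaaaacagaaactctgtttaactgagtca
Ifit3, chr19:34583377-34583446, plus strand: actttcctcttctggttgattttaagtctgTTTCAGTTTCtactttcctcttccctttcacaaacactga
Ifit3b, chr19:34607773-34607842, plus strand: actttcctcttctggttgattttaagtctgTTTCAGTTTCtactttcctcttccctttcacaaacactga
Tgtp2, chr11:49064243-49064312, minus strand: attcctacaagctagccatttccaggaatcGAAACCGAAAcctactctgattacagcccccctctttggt
Gbp5, chr3:142496739-142496808, plus strand: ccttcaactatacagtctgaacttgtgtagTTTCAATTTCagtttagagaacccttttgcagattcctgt
Gbp3, chr3:142559975-142560043, plus strand: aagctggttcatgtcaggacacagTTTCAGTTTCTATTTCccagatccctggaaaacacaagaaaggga
The stretches printed for Ifit3 and Ifit3b have the same letters at different places on chromosome 19. As the genes are close copies, reads may be split between them and their values are uncertain. In Gbp3 the letters of 2 matches run into each other.

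Antigen presentation and chemokines fell alongside. Of 17 class I genes all 17 fell (median -2.66). B2m, the light chain of class I molecules, was at 752, 739 and 699 CPM in the ACT libraries and 2531, 2608 and 2663 CPM in the QS libraries (log2 fold change -1.83, SE 0.0372, limma adjusted p = 1.05e-14). Nlrc5, their transactivator, was at 7.28 to 10.6 CPM in ACT against 101 to 127 CPM in QS. The immunoproteasome genes Psmb9 (-2.68), Psmb8 (-2.14) and Psmb10 (-1.77) fell while Psmd8, a regulatory subunit, rose (1.43). H2-Q6 and H2-Q7 fell by 7.09 and 5.29 on the log2 scale, but they are near-identical copies and their split is uncertain. Of 9 class II genes 7 fell and 1 rose (median -2.79): H2-Aa was at 3.03 to 5.38 CPM in ACT against 222 to 245 CPM in QS, and the invariant chain Cd74 at 17.9 to 20.5 CPM in ACT against 638 to 704 CPM in QS. Of 19 chemokines 13 fell and 5 rose. Cxcl10 was at 1.84, 1.69 and 1.68 CPM in the ACT libraries and 384, 379.8 and 379.8 CPM in the QS libraries. Cxcl12, which stellate cells secrete, fell by 1.05 on the log2 scale. Ccl6, a macrophage chemokine, rose (2.39) and averaged 895 CPM (ACT), 5.14 CPM (KO) and 170.4 CPM (QS). Among cytokines Il1b (-4.79), Il1rn (-2.45) and Tnf (-1.66) fell. Csf1, the macrophage growth factor, rose to 1164, 1163 and 1181 CPM in ACT against 408, 409 and 412 CPM in QS (1.51), and Il6 was not called at 9.56 ± 0.671 CPM in ACT and 7.64 ± 1.49 CPM in QS, but was called higher without the third QS library (adjusted p = 0.0363). Of 34 complement and clotting genes 22 fell and 11 rose, with F8, factor VIII of sinusoidal endothelium, at 12.5 to 13.4 CPM in ACT against 993 to 1035 CPM in QS. F3, tissue factor, was at 210.1, 203 and 202 CPM in the ACT libraries and 3.82, 2.52 and 3.76 CPM in the QS libraries. Kupffer cell and endothelial markers fell in the same libraries, and their part in these falls was not tested.

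**Figure D4:**
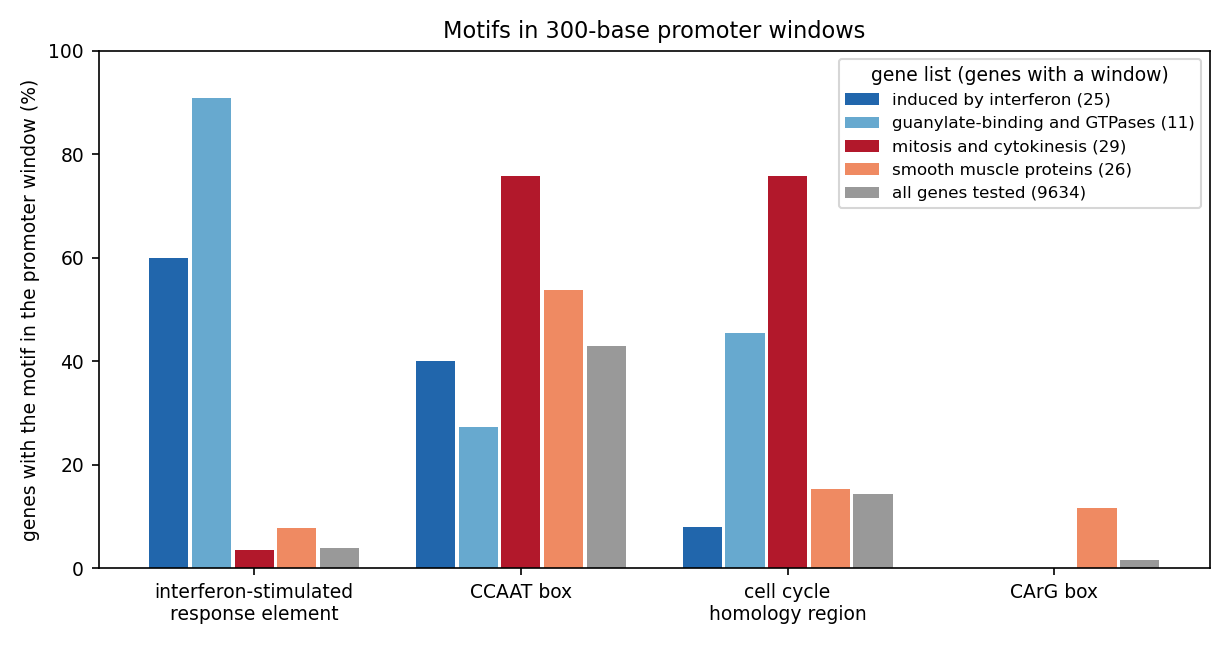
Percentage of genes whose 300-base RefSeq promoter window holds each motif, for 4 lists and for all genes tested; the number of genes with a window is in brackets. The response element is in 60% and 90.9% of the interferon lists against 3.95% of all genes tested, and the cell cycle homology region in 75.9% of mitosis genes against 14.3%.

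Proliferation genes rose. Of 35 genes of mitosis and cytokinesis 34 rose and none fell (median 2.81), and of 31 genes of replication and S phase 30 rose and none fell (median 1.62). Anln, which scaffolds the cleavage furrow, was at 153, 154 and 152 CPM in the ACT libraries and 9.71, 9.6 and 11.1 CPM in the QS libraries (log2 fold change 3.8, SE 0.0534, limma adjusted p = 2.50e-16). Rrm2, the ribonucleotide reductase subunit made in S phase, was at 86.5 to 98.3 CPM in ACT against 3.76 to 5.99 CPM in QS. Mki67, the Ki-67 antigen, was at 311, 316 and 315 CPM in the ACT libraries and 39.6, 40.1 and 44.5 CPM in the QS libraries. Of 22 genes around G1, 12 rose and 7 fell: Cdk6 rose (2.37), Ccnd1, cyclin D1, rose little (0.3), and Cdkn1c, an imprinted inhibitor of the cycle, fell to 0.863 CPM in ACT against 21.1 CPM in QS. Cdkn2a, the senescence-linked inhibitor, was at 6.78 to 9.79 CPM in ACT against 1.03 to 1.92 CPM in QS (1.81). The 88 cell cycle genes held 0.588% to 0.597% of ACT libraries and 0.246% to 0.249% of QS libraries. Of 25 p53 targets 11 rose and 8 fell (median 0.13), near the shares of all genes called higher (38.0%) and lower (35.5%). Ccng1, cyclin G1, led the rises, at 700.3, 685 and 683 CPM in the ACT libraries and 106, 112 and 103 CPM in the QS libraries.

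Promoters of mitosis genes carry the cell cycle homology region, which the repressor complex DREAM and the activator complex of MYB and FOXM1 bind, and often CCAAT boxes of the factor NF-Y. The letters TTTGAA, on both strands, lay in 22 of 29 mitosis genes with a promoter entry (75.9%) against 14.3% of all genes tested, and CCAAT in 22 of 29 (75.9%) against 43.0%. Among all genes called higher 14.7% held TTTGAA and 43.95% CCAAT. Whether these letters had a part in the rises was not tested. With examples limited as for the interferon genes, the 3 remaining genes with the largest rises are shown. Genes with larger rises may hold the region too. TTTGAA and CCAAT or their reverse complements are in capitals. Top2a encodes the topoisomerase of mitotic chromosomes and rose by 3.53, Kif2c a kinesin of the centromere (3.51) and Prc1 a bundler of the spindle midzone (3.44).
Top2a, chr11:99024190-99024272, minus strand: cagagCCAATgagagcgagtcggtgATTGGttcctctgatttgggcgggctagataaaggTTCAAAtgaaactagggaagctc
Kif2c, chr4:117178840-117178935, minus strand: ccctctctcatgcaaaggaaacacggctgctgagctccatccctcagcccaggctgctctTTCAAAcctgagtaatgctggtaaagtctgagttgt
Prc1, chr7:80294386-80294475, plus strand: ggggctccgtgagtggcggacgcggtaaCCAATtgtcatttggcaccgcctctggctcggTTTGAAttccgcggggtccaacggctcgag

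Many biosynthetic genes rose, most of them by small amounts. Of 80 genes of the cytosolic ribosome 72 rose and 1 fell (median 0.43), Rps7 (1.72) and Rplp0 (1.25) being among the higher values. Of 77 genes of the mitochondrial ribosome 34 rose, 3 fell and 40 were not called (median 0.27), against 38.0% of all genes called higher. Of 27 genes of secretory transport 24 rose and 1 fell (median 0.51), and Kdelr3, a retrieval receptor of the endoplasmic reticulum, stood apart at 58.8, 55.2 and 55.2 CPM in the ACT libraries and 2.69, 1.68 and 6.68 CPM in the QS libraries (log2 fold change 3.76, SE 0.261, limma adjusted p = 9.42e-09). Of 21 chaperones and sensors of the reticulum 17 rose and 2 fell (median 0.71), such as Calr (1.26) and Hspa5 (0.71). Serine synthesis rose more steeply: Phgdh, its first enzyme, was at 108, 99 and 111 CPM in the ACT libraries and 0.826, 1.2 and 0.81 CPM in the QS libraries (log2 fold change 5.78, SE 0.0844, limma adjusted p = 3.55e-16). Psat1, which acts further along, was at 139.8 to 149 CPM in ACT against 4.67 to 12.1 CPM in QS (3.9). Atf4, the factor that controls both, was lower at the RNA level (-0.78). Pycr1, which makes proline, rose (2.55). Has2, the hyaluronan synthase, was at 37, 32.8 and 35.1 CPM in the ACT libraries and 0.413, 0.96 and 0.418 CPM in the QS libraries. The enzymes that supply its sugars, Ugdh (1.95) and Gfpt2 (2.31), rose as well.

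Energy genes split by genome. All 13 mitochondrially encoded genes fell (median -1.73), and of 74 nuclear genes of the respiratory chain 48 rose and 2 fell (median 0.30). The 13 genes made up 3.70% to 4.22% of ACT libraries, 5.34% to 5.79% of KO libraries, 4.50% to 4.77% of LAC libraries and 12.3% to 12.4% of QS libraries. mt-Co1, a cytochrome oxidase subunit, was at 13775, 13961 and 12961 CPM in the ACT libraries and 37109.8, 39996 and 41180.5 CPM in the QS libraries (log2 fold change -1.54, SE 0.0417, limma adjusted p = 2.67e-13). Of the 13, mt-Nd2, a complex I subunit, had the largest fall (-2.49). Of the nuclear subunits Cox7b rose by 0.95 and Atp5b by 0.63. In glycolysis 11 of 18 enzyme genes rose and 3 fell. Hk2, flanked by the Cre sites, was at 181, 182 and 181 CPM in the ACT libraries and 73.3, 66.7 and 73.5 CPM in the QS libraries (log2 fold change 1.34, SE 0.0776, limma adjusted p = 1.23e-09). Ldha, lactate dehydrogenase, rose (1.2), and Slc16a3, the lactate exporter MCT4, was at 34.9 to 36.7 CPM in ACT against 12.5 to 14.8 CPM in QS. Pklr, the liver pyruvate kinase, was listed at 0 in ACT and had 13.9, 13.7 and 12.9 CPM in QS, where hepatocyte markers were higher too.

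Lysosomal genes mostly rose and lipid genes were mixed. Of 35 lysosomal genes 26 rose and 5 fell (median 0.81), and they held 4.07% to 4.16% of ACT libraries, 1.05% to 1.08% of KO libraries, 1.87% to 1.89% of LAC libraries and 1.5% to 1.53% of QS libraries, the order of groups that the macrophage markers had. Ctsd, cathepsin D, averaged 1290.4 ± 30.3 CPM in KO and 3436 ± 63 CPM in LAC, and was at 10318, 10297 and 10543 CPM in the ACT libraries and 1422, 1381 and 1465 CPM in the QS libraries (log2 fold change 2.87, SE 0.0309, limma adjusted p = 1.85e-17). Ctsk, the collagen-degrading cathepsin, averaged 65.4 CPM (ACT), 29.95 CPM (KO) and 4.95 CPM (QS). Lpl, lipoprotein lipase, averaged 2307 CPM (ACT), 179.6 CPM (KO) and 157 CPM (QS). For these 2 genes QS was lower than KO, as for Spp1 of the macrophage list, while that list as a whole was lowest in KO. The part of macrophages in these rises was not tested. Plin2, the coat of lipid droplets, was at 1236, 1236 and 1257 CPM in the ACT libraries and 587, 586 and 617 CPM in the QS libraries (1.06). Of 27 genes of fatty acid synthesis and storage 15 rose and 7 fell (median 0.78), and of 16 genes of fatty acid oxidation 10 rose and 4 fell (median 0.32). The largest fall of the first list was in Fabp1, the fatty acid-binding protein of hepatocytes, at 0 to 0.364 CPM in ACT against 214 to 247 CPM in QS. Of 19 sterol synthesis genes 15 rose and 1 fell (median 0.56), such as Dhcr7 (1.86). Of 15 genes of sterol control, uptake and efflux 9 fell and 2 rose. Mylip, which degrades lipoprotein receptors, was at 9.55 to 11.3 CPM in ACT against 279 to 288 CPM in QS, and Abcg1, a cholesterol exporter, fell (-1.91).

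Regulators of chromatin and clock fell more often than they rose, with the exception of histone deacylases, which were divided. Of 13 histone acetyltransferases 11 fell and 1 rose (median -0.53). Ncoa3 was at 112, 114 and 129 CPM in the ACT libraries and 364, 366 and 375 CPM in the QS libraries (log2 fold change -1.63, SE 0.0535, limma adjusted p = 2.11e-12). Kat6a fell by 1.41 on the log2 scale and Ep300, the p300 gene, by 0.61, and Hat1, which acetylates new histones, rose (0.64). Of 8 bromodomain readers 7 fell and 1 rose, whereas of 16 deacylases 6 fell, 4 rose and 6 were not called (median 0.0039). Among 29 histone and DNA methylation genes 17 fell and 7 rose. Ezh2, the Polycomb methyltransferase of dividing cells, rose (1.94) at 50.1 to 51.1 CPM in ACT against 9.93 to 14.2 CPM in QS. Its relative Ezh1 fell (-1.51) at 30.8 to 35.5 CPM in ACT against 95.4 to 97.2 CPM in QS. Of 18 clock genes 13 fell and 5 rose (median -0.89), and Nr1d1, a repressor of the clock, was at 13.6 to 15.4 CPM in ACT against 155 to 159 CPM in QS. Dbp, an output factor of the clock, was at 3.79 to 5.26 CPM in ACT against 47 to 54.8 CPM in QS. The time of day of sampling is not given in the sources used here. Of 13 AP-1 genes 10 fell and 3 rose (median -1.06), and of 26 other immediate early genes 22 fell and 4 rose (median -1.02). Fos was at 24.1, 24.8 and 24.7 CPM in the ACT libraries and 94.1, 84.4 and 89.9 CPM in the QS libraries. Jun was at 82.1 to 93 CPM in ACT against 280.3 to 303 CPM in QS. Hspa1a (-3.48) and Hspa1b (-3.11), heat shock genes with near-identical copies, were lower in ACT too. Of 324 Zfp zinc finger genes 159 fell and 38 rose (median -0.35).

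Genes used to normalize PCR were not level. Of 21 such genes 15 rose and 4 fell (median 0.40). Gapdh was at 1637, 1733 and 1625 CPM in the ACT libraries and 729, 667 and 695 CPM in the QS libraries (1.26). Actb, beta-actin, was at 5906 to 6064 CPM in ACT against 2991 to 3305 CPM in QS (0.94). Gusb, a lysosomal enzyme, was at 362, 401 and 390.4 CPM in the ACT libraries and 53.9, 36.2 and 44.2 CPM in the QS libraries (log2 fold change 3.09, SE 0.106, limma adjusted p = 3.28e-12). Hsp90ab1, a heat shock protein, had 1762 ± 16.6 CPM in ACT and 1867 ± 38 CPM in QS and fell slightly (-0.08), a call lost without any 1 library other than the first QS library (adjusted p = 0.0502 to 0.11). Of 36 antioxidant genes 18 fell and 13 rose. Hmox1, heme oxygenase, was at 572 to 596 CPM in ACT against 2038 to 2183 CPM in QS, and Sod3, extracellular superoxide dismutase, at 5.94 to 7.07 CPM in ACT against 175 to 198 CPM in QS. Gpx3, a secreted glutathione peroxidase, was at 65.8 to 68.1 CPM in ACT against 8.99 to 14.9 CPM in QS. Of 17 hypoxia factors and targets 11 fell and 5 rose, with Hif1a (-0.89) and Epas1 (-1.81) lower and Vegfa higher. Imprinted genes moved apart: Peg3 was at 163, 156 and 159.6 CPM in the ACT libraries and 12.1, 18 and 12.1 CPM in the QS libraries. Mest was at 22, 20.3 and 20.7 CPM in the ACT libraries and 207, 209 and 218 CPM in the QS libraries.

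**Figure D5:**
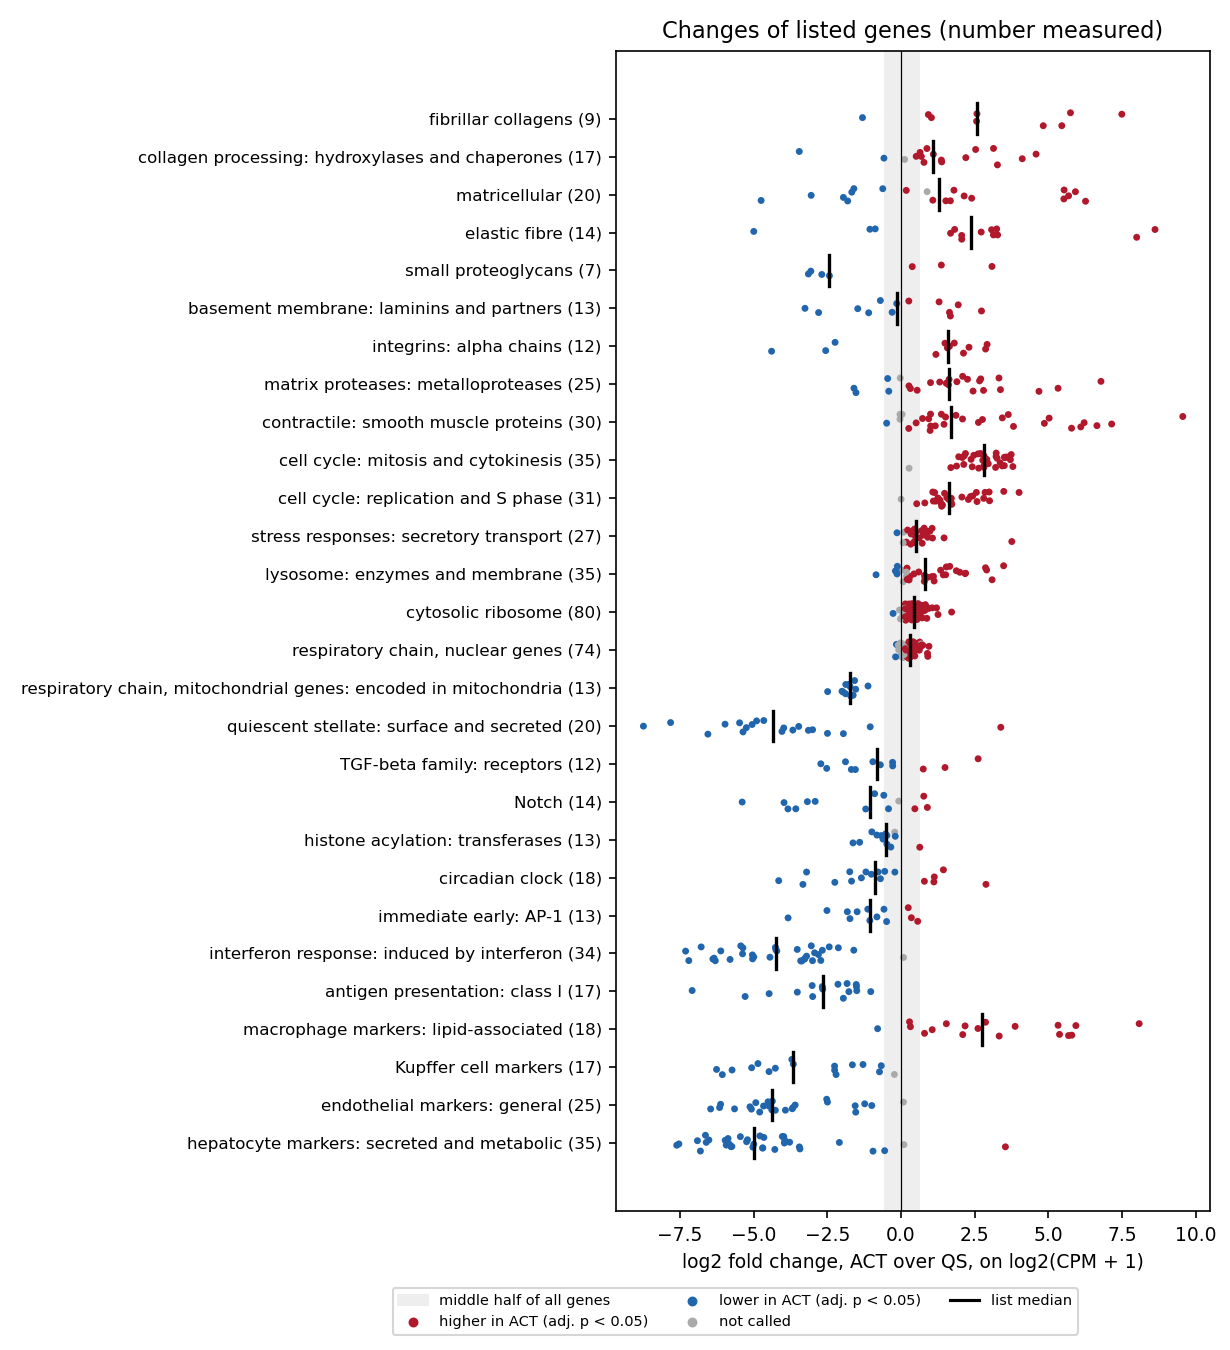
Log2 fold change of ACT over QS on log2(CPM + 1) for the genes of 28 lists, 1 point a gene, coloured by call, with the list median as a black bar and the range between the quartiles of all genes (-0.54 to 0.62) shaded; brackets give the number of genes measured. The medians of mitosis (2.81), replication (1.62), contractile (1.69) and lipid-associated macrophage genes (2.74) lie right of the shaded range, and those of interferon (-4.23), class I (-2.66), Kupffer cell (-3.66), endothelial (-4.37) and hepatocyte genes (-5.00) left of it.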

How the data were processed

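Poly(A) RNA of 12 libraries of mouse primary hepatic stellate cells, 3 each of ACT, KO, LAC and QS, was sequenced from stranded mRNA libraries, per the labels' protocols. The submitters' processing notes name FastQC 0.11.8, cutadapt 1.18, kallisto 0.44.0, edgeR 3.8 and the mm10 genome, without their roles. The authors deposited 1 table of normalized CPM values (counts scaled to library size) for 12081 genes. Its column totals lie between 959233 and 1047042, not at 1 common value, so the values were treated as a normalized signal and not as counts, as deposited. Between 19.7% and 25.8% of the values of a library came within 0.01 of whole reads, so whole reads were not recovered and count tests were left out. Depth was estimated from the smallest value shared by at least 5 genes, as 1 read, at 4.35 to 14 megareads a library over all 4 groups. The depth limits the precision of genes with few reads.

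Differences were tested with limma (version 3.58.1, under R 4.3.3), applied to log2(CPM + 1) with the 12 libraries as 4 group means, a trend of variance with level and Benjamini-Hochberg adjustment over all genes. All 12081 genes reached 1 CPM in at least 3 libraries. The procedure was tested on simulated data with few changed genes and an assumed spread. That test does not give its error rate in these data, where most genes were called. Tables, promoter searches and plots used Python 3.11.15 with pandas 2.3.3, numpy 2.4.6 and matplotlib 3.10.9. Genes were placed by symbol with GENCODE M21 (11888 matched), and promoter sequences are from RefSeq, build GRCm38.p6. Named genes are the 12 largest rises and falls on the log2 scale, the 8 largest rises and falls in CPM, the called members with the largest changes or highest levels in each of 63 gene lists, all members of lists with up to 14 genes, stellate transcription factors, a fixed set of markers, and the genes whose promoters are shown; some of them are not reported here. Members and lists were chosen with earlier results of these data known. Within each group every pair of libraries differed by more than the sampling noise of the estimated reads, and each library counted once. That does not show that the libraries come from separate animals or cultures. Same-numbered ACT and QS libraries did not deviate together. The pseudocount, the filter on low values, the scaling, the samples in the fit, the variance model and each left-out library were varied.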

Additional observations from a re-analysis of the deposited data

How the results depend on the processing

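No count of called genes moved by more than 1.5 times under any alternative run. Without any 1 ACT or QS library 4338 to 4534 genes were called higher in ACT and 4071 to 4188 lower. Scaling all libraries to equal totals gave 5042 higher and 3908 lower, so that 56.3% of calls were rises, against 51.7% as reported, with a median log2 fold change over all genes of 0.11. Leaving other-cell and mitochondrial genes out of that scaling gave 4461 and 4482. A fit with a replicate block, which pairs ACT and QS libraries by number, gave 4594 and 4299; the numbers share no source in the labels, and the deviations of same-numbered libraries correlated at -0.0018, 0.013 and 0.022. The median of mesenchymal activation factors became -0.027, that of integrin beta chains 0.38 and that of ephrins, slits and netrins -0.15 when genes under 5 CPM were left out. Under quantile normalization the median of heat shock genes became -0.093, that of neutrophil, mast cell, platelet and red cell markers -0.081 and that of splicing factors 0.018; the cause was not tested. None of the 313 genes named turned its direction where it was called as reported or in the alternative run. Turns of genes called in neither were not counted. The fold change of mt-Co1 became 0 under quantile normalization, which gives the top gene of each library the same value. The call of Foxf1 was lost under equal totals (adjusted p = 0.117), equal medians, quantile normalization, the fit of ACT and QS alone and without 3 single libraries (the third QS library, adjusted p = 0.157). That of Pdgfc was lost with a pseudocount of 0.1 (adjusted p = 0.157) and that of Vasp under quantile normalization (adjusted p = 0.092). Hsp90ab1 lost its call under equal totals (adjusted p = 0.98). Of genes not called, equal totals gave calls for Il6 (0.37, adjusted p = 0.0447), Loxl3 (0.24, adjusted p = 0.036) and Adgre1 (0.26, adjusted p = 0.0264), quantile normalization for Ifnar1 (0.2, adjusted p = 0.00892), and scaling without other-cell and mitochondrial genes for Fermt2 (-0.099, adjusted p = 0.00801), as did a pseudocount of 0.1 (adjusted p = 0.0481).

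ACT and QS cells differ in virus, culture and time together, which cannot be told apart. The lists overlap, and markers of other cells moved beside many of them. The normalization of the deposited values beyond scaling to library size is not given in the sources used here, and the values above show calls that change with the scaling. Genes with near-identical copies or overlapping neighbours share reads, and a gene listed at 0 cannot be called absent.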
